A study of Mus musculus with 18 samples.

Results

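The genes described here are 10 members of the MYC and MAX network, namely Myc (ENSMUSG00000022346), Mycn (ENSMUSG00000037169), Mycl (ENSMUSG00000028654), Max (ENSMUSG00000059436), Mxd1 (ENSMUSG00000001156), Mxd3 (ENSMUSG00000021485), Mxd4 (ENSMUSG00000037235), Mxi1 (ENSMUSG00000025025), Mnt (ENSMUSG00000000282) and Mlx (ENSMUSG00000017801). They were chosen by name as MYC and its relatives, partners and antagonists, with earlier results of these data known, out of 34937 genes in the count files. All 10 passed the count filter in the fit of all 18 libraries. RNA came from 18 mouse livers in 6 groups of 3 mice. All livers had been injured with carbon tetrachloride, a poison of hepatocytes, at 0.5 µL per g body weight by intraperitoneal injection. MycER is MYC joined to a hormone-binding part of the estrogen receptor, and it was activated by tamoxifen, 1 mg a day by the same route. Groups 1OFF, 2OFF, 3OFF and 7OFF are labelled 1, 2, 3 and 7 days after injury with no MycER activation. Group 12ON was taken at day 12 with MycER activated, and group 12 at day 12 with no activation. The labels do not give the strain, sex or age of the mice or the promoter that drives MycER. They also do not say whether group 12 received tamoxifen, or whether MycER had been active earlier in the OFF mice. The study set 12ON against 12, and each OFF time against 12ON.

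MYC proteins bind DNA only as pairs with MAX, and the pair activates genes through the E-box CACGTG. MXD1, MXD3, MXD4, MXI1 and MNT compete for MAX, bind the same sites and bring in SIN3 and histone deacetylases, which repress transcription. MLX is a MAX-like protein that pairs with MXD1, MXD4 and MNT, and with the glucose-sensing factors MLXIP (MondoA) and MLXIPL (ChREBP). MLXIPL drives genes of sugar use and fat synthesis in the liver. In the adult liver MYC is low at rest and is induced when hepatocytes are pushed to divide.

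Promoter sequence is shown because the factors themselves read CACGTG, so the windows at the starts of the network genes were searched for that motif. The motif reads the same on both strands. RefSeq windows (GRCm38.p6) from 250 bases before to 50 after the start were held for 9 of the 10 genes, as 11 windows with 3 for Mxi1. Max, Mxd4, Mnt and Mlx had CACGTG in this window, which is 44.4% of the 9 genes, against 8.09% of 27025 genes in the same table. The match is a description of letters and shows no binding. It was absent from the windows of Mycn, Mycl, Mxd1, Mxd3 and Mxi1. The stretches below run 5′ to 3′ in the direction of the gene from 230 bases before to 20 after the start, with CACGTG in capitals. Its first base lies 3 bases before the start in Max, 219 in Mxd4, 123 in Mnt and 40 in Mlx.
Max (chr12:76962229-76962478, minus strand): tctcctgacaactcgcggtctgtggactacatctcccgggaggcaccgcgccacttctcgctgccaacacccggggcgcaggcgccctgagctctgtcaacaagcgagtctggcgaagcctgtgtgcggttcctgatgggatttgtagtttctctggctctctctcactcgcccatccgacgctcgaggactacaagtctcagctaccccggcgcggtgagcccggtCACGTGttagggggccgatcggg
Mxd4 (chr5:34187691-34187940, minus strand): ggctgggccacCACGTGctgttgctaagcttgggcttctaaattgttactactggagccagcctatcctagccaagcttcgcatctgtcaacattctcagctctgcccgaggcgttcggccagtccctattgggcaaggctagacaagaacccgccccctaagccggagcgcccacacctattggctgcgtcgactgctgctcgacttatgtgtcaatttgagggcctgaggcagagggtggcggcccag
Mnt (chr11:74830694-74830943, plus strand): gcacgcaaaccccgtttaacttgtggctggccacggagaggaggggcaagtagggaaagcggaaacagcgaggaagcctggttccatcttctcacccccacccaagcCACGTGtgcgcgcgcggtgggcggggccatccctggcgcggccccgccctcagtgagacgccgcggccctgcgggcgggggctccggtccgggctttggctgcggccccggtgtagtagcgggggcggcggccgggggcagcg
Mlx (chr11:101087060-101087309, plus strand): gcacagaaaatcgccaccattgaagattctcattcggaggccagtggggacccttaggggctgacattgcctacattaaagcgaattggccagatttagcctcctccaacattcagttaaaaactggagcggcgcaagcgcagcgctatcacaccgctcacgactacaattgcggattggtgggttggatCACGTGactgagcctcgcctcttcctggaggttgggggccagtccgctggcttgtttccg
Of these 4 genes, 3 differed between 12ON and group 12, with Max and Mnt higher and Mlx lower in 12ON, and Mxd4 did not pass. In that comparison 46.6% of all tested genes passed. Of the genes without the motif in their windows, Mycl, Mxd3 and Mxi1 passed too, and Mycn and Mxd1 did not. Whether the motif bears on these differences was not tested.

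Libraries held 23.1 to 75.3 M counts and 19763 to 22315 detected genes. Hepatocyte markers were present in every group, with summed levels between 50700 and 164000 CPM (reads relative to the library's total, scaled by the trimmed mean of M values, TMM). Their sum lay at 50700 to 62200 CPM in 12ON, against 151000 to 164000 CPM in group 12, and 8 of 9 were lower in 12ON. The 6 cholangiocyte markers were all higher (184 to 198 CPM in 12ON, against 32.1 to 93.4 CPM in group 12), the 5 sinusoidal endothelial markers all lower (128 to 139 CPM in 12ON, against 259 to 292 CPM in group 12), and 3 of 4 Kupffer cell markers lower (231 to 386 CPM in 12ON, against 584 to 859 CPM in group 12). No marker list had a gene at 0 in all 3 libraries of a group. What these shifts contribute to the member values below was not tested, and in whole liver fewer cells of a type and less RNA per cell cannot be told apart. Xist lay at 276 to 455 CPM in 5 libraries, 1 in each group but 1OFF, and at most at 1.94 CPM in the other 13, so results are also given without those 5 where a call ends.

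Compared per exon length, as RPKM (CPM per kilobase of exon), the network was led by the shared partners and antagonists, and MYC family RNA was low. The place of Mxd3 in these orders is uncertain, since its count may hold many reads of Prelid1, as described below. In 12ON the order of mean levels was Max (14.4 ± 0.286 RPKM, SD, n = 3), Mxd3 (14.2 ± 0.365), Mxd4 (12.4 ± 1.33), Mlx (11.4 ± 0.372), Mxi1 (6.16 ± 0.387), Mnt (3.86 ± 0.67), Myc (2.26 ± 0.353), Mxd1 (1.21 ± 0.13), Mycl (1.02 ± 0.259) and Mycn (0.0611 ± 0.0265). In that order Max and Mxd3, Mxd4 and Mlx, and Mxd1 and Mycl overlapped between libraries, and the other neighbours did not. Group 12 began with Mlx (18.4 ± 2.14 RPKM), whose 3 libraries lay above all of the next gene, Mxd4 (11.5 ± 1.7). Max (11.1 ± 0.943), Mxd3 (10.6 ± 0.428), Mxi1 (3.33 ± 0.104), Myc (2.67 ± 0.679), Mnt (2.5 ± 0.347), Mycl (2.17 ± 0.662), Mxd1 (1.13 ± 0.0244) and Mycn (0.0658 ± 0.023) followed. There Mxd4, Max and Mxd3 overlapped from each to the next, as did Mxi1, Myc, Mnt and Mycl. Mxd4 came first in 1OFF, 2OFF and 3OFF (14.9 ± 1.16, 15.8 ± 0.631 and 15.8 ± 0.784 RPKM), and Mlx in 7OFF (15.5 ± 0.358), with Mxd4 overlapping it there.

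**Figure D1:**
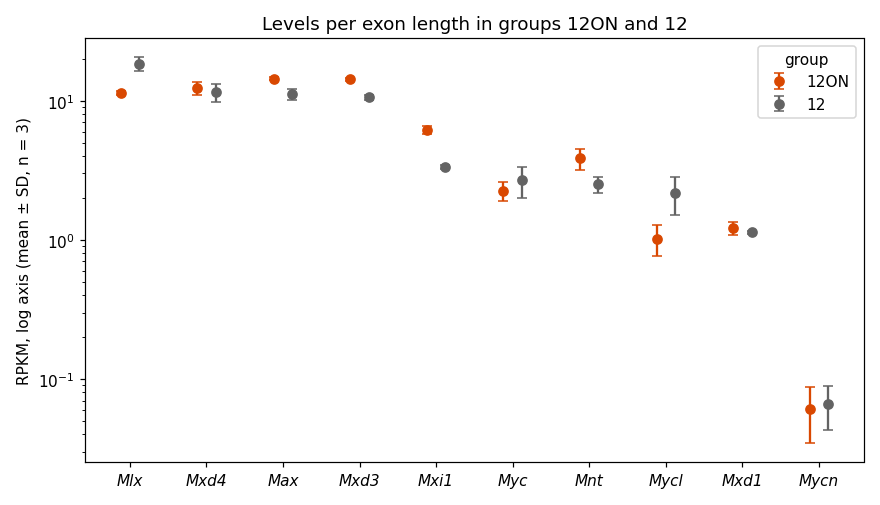
Mean RPKM (log axis) with SD over 3 livers for each of the 10 genes in group 12ON (orange) and group 12 (grey), in the order of group 12. Mlx lies at 11.4 in 12ON and 18.4 in group 12, Mxi1 at 6.16 and 3.33, and Mycn is at the bottom of both groups.

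Summed over a role, the 3 MYC family genes gave 3.35 ± 0.504 RPKM in 12ON and 4.9 ± 0.879 RPKM in group 12. The antagonists Mxd1, Mxd3, Mxd4, Mxi1 and Mnt together gave 37.8 ± 0.853 RPKM in 12ON and 29 ± 1.91 RPKM in group 12. Without Mxd3, whose count is uncertain for the reason given below, the sums were 23.6 ± 0.817 RPKM in 12ON and 18.4 ± 1.83 RPKM in group 12. The antagonist sums did not overlap between these groups, nor did those of the MYC family (2.86 to 3.87 RPKM in 12ON and 3.92 to 5.61 RPKM in group 12). No test was made on these sums.

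With MycER activated at day 12, RNA of the hub gene Max and of the antagonist genes Mxi1 and Mnt was higher than in group 12, and that of Mlx and Mycl was lower. The count of Mxd3 was higher too, but its reads cannot be told apart from those of Prelid1. Myc itself, Mycn, Mxd1 and Mxd4 did not pass. Differences were tested with edgeR's quasi-likelihood test over all 17789 genes that passed the filter, with Benjamini-Hochberg adjustment at 0.05, and log2 fold changes are given with standard errors. At this threshold 6 of 10 members passed, 4 higher and 2 lower, while 46.6% of all tested genes passed, 24.0% higher and 22.6% lower. The share among members is thus near that of all genes. The median log2 fold change was 0.11 over the members and -0.00 over all tested genes. In the same 6 genes the groups did not overlap in CPM, against 58.2% of all genes.

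Among the MYC family, Myc lay at 6.96, 5.14 and 6.68 CPM in the 3 12ON livers and at 6.23, 6.35 and 9.54 CPM in the 3 livers of group 12. The groups overlapped, and the log2 difference of -0.24 ± 0.25 did not pass (adjusted p = 0.455). Gene totals hold reads of the mouse gene and any reads of MycER RNA that align to it, and these cannot be told apart. Myc is at chr15:61985341-61990374 of GRCm38 and does not share exon bases with another gene. Mycl, the MYC relative named for lung cancer, is at chr4:122995652-123002485. It lay at 5.28, 3.87 and 3.24 CPM in 12ON, against 11.62, 6.32 and 8.38 CPM in group 12. Every 12ON liver was below every liver of group 12, and Mycl fell 2.11-fold (log2 -1.08 ± 0.27, adjusted p = 0.00464). Mycn, the relative named for neuroblastoma, had 3 to 16 counts in any library of the series and at most 0.37 CPM, and its difference did not pass (log2 -0.17 ± 0.52, adjusted p = 0.81).

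Max, the obligate partner, is at chr12:76937269-76962248. It lay at 29.46, 28.34 and 28.69 CPM in 12ON, against 23.97, 22.66 and 20.25 CPM in group 12. The groups did not overlap, and Max rose 1.3-fold (log2 0.37 ± 0.09, adjusted p = 0.00261), the smallest called change of the 6.

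Of the antagonists, Mxi1 differed most. The gene, at chr19:53310506-53375810, lay at 34.65, 36.74 and 32.39 CPM in 12ON, against 19.36, 18.61 and 18.20 CPM in group 12. All 3 12ON livers stood well above group 12, and Mxi1 rose 1.85-fold (log2 0.89 ± 0.10, adjusted p = 8.55e-06). Mnt, found in most tissues and at chr11:74830920-74845725, lay at 20.30, 18.91 and 14.37 CPM in 12ON, against 13.44, 10.62 and 10.70 CPM in group 12. The lowest 12ON liver was close to the highest of group 12, and Mnt rose 1.55-fold (log2 0.63 ± 0.16, adjusted p = 0.00516). Mxd1, known for its induction as cells differentiate (chr6:86647042-86669161), lay at 7.53 to 9.16 CPM in 12ON, against 7.80 to 8.10 CPM in group 12, and did not pass (log2 0.10 ± 0.16, adjusted p = 0.637). Mxd4 at chr5:34173883-34187720 had the highest CPM of the 10 genes, which is not set per length. It lay at 92.93 to 115.22 CPM in 12ON, against 81.76 to 110.39 CPM in group 12, with overlap and no call (log2 0.11 ± 0.11, adjusted p = 0.44).

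Mlx, at chr11:101087277-101092207, moved the other way from Max. It lay at 22.89, 22.07 and 23.56 CPM in 12ON, against 36.07, 41.49 and 33.04 CPM in group 12. The 3 12ON livers were close together and below all of group 12, and Mlx fell 1.61-fold (log2 -0.69 ± 0.11, adjusted p = 0.000107). Its exons share 385 bases with Psmc3ip on the opposite strand, and reads were counted for each gene they overlapped with no strand. Psmc3ip had 7.43 ± 1.21 CPM in 12ON, against 8.59 ± 0.766 CPM in group 12 (SD, n = 3). What shared reads contribute to the Mlx values was not tested.

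Mxd3, known for high levels in dividing cells, is at chr13:55325168-55329758 and needs care. Its count lay at 29.81, 30.16 and 28.71 CPM in 12ON, against 21.07, 22.85 and 22.03 CPM in group 12. The groups did not overlap, and the count rose 1.34-fold (log2 0.43 ± 0.11, adjusted p = 0.00415). Its end shares 104 exon bases with Prelid1, a gene for a mitochondrial lipid transfer protein on the opposite strand, which had 184 ± 6.73 CPM in 12ON, against 139 ± 5.39 CPM in group 12. Prelid1 rose by nearly the same amount (log2 0.40 ± 0.09, adjusted p = 0.00272). The Mxd3 count was 14.2% to 17.1% of the Prelid1 count in all 18 libraries. If Prelid1 reads covered its exons evenly, the shared bases alone would hold 12.7 to 19.4 CPM, which is 55.8% to 67.5% of what was counted for Mxd3. Reads of the 2 genes cannot be told apart in these totals, so each Mxd3 value here is uncertain.

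**Figure D2:**
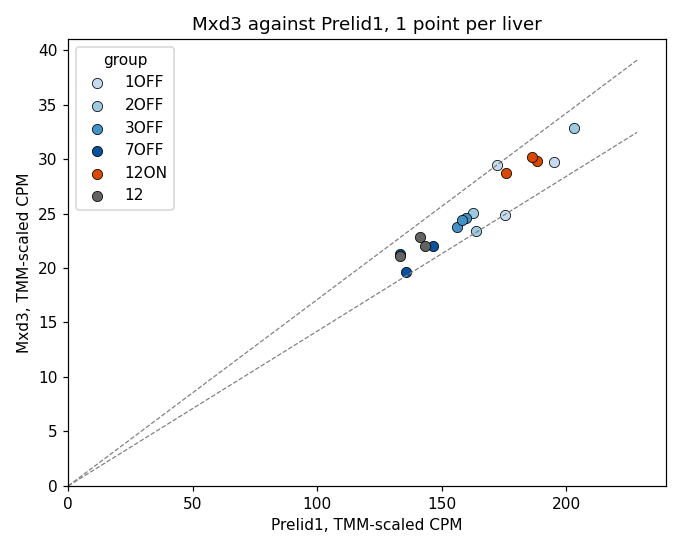
TMM-scaled CPM of Mxd3 against that of Prelid1, 1 point per liver, coloured by group, with dashed lines at 14.2% and 17.1%. All 18 points lie between or on the lines, so the Mxd3 count kept nearly the same share of the Prelid1 count in every group.

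Mxi1 and Mxd4 also share bases with annotated genes on the opposite strand, 194 with Gm10197 and 514 with Gm42846, which make up nearly all of the length of Gm10197 and all of Gm42846. Their counts are several times those of these partners, at 554% to 722% for Mxi1 over Gm10197 and 562% to 628% for Mxd4 over Gm42846.

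All 6 calls held when each of the 6 libraries of 12ON and 12 was left out in turn. Without the 5 libraries with high Xist, Mnt (log2 0.53, adjusted p = 0.0938) and Mxd3 (0.41, adjusted p = 0.0543) no longer passed. In that fit 3154 of 17800 genes were called higher and 2834 lower, against 4269 and 4029 in the full fit. With CPM by total count in place of TMM, the median of all genes moved by 0.49 on the log2 scale, and the split of all calls was 9130 higher and 1403 lower, against 4269 and 4029 with TMM. On that scale Mlx (-0.19, adjusted p = 0.108) and Mycl (-0.59, adjusted p = 0.0808) did not pass, though both stayed below the median of all genes, while Mxd1 (0.59, adjusted p = 0.0137) and Mxd4 (0.62, adjusted p = 3.77e-05) did.

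**Figure D3:**
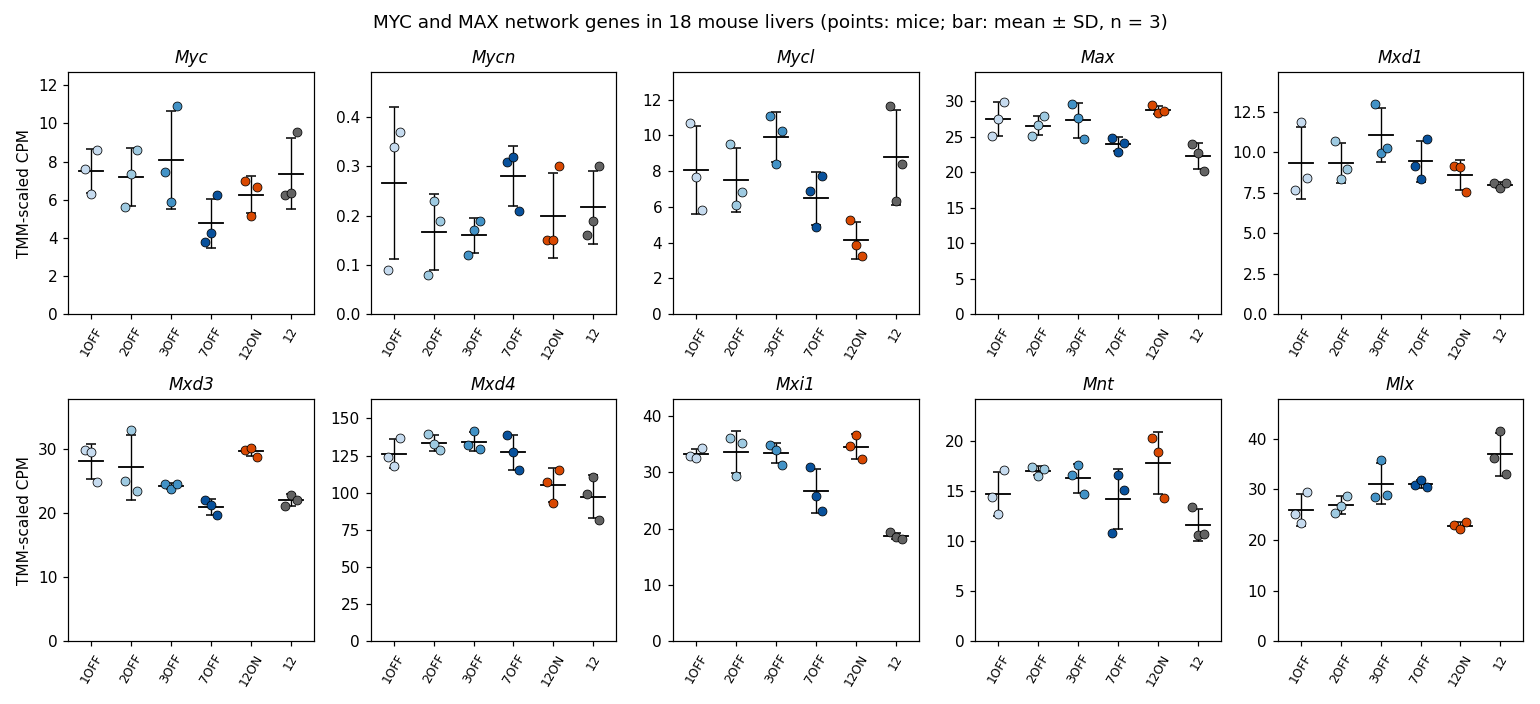
TMM-scaled CPM of the 10 genes (linear axes from 0), 1 point per liver, with the mean and SD of each group of 3. Mxi1 lies at 29.30 to 36.74 CPM in 1OFF, 2OFF, 3OFF and 12ON, at 23.22 to 31.02 CPM in 7OFF and at 18.20 to 19.36 CPM in group 12. On average Mlx is lowest in 12ON, where it overlaps 1OFF, and highest in group 12.

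The study's further comparisons set each OFF time against 12ON. By the labels these groups differ both in day after injury and in MycER activation, which cannot be told apart here. At 1OFF none of the 10 members passed edgeR's test, and 0.00562% of all genes did, which is 1 gene. At 2OFF none passed, against 0% of all genes. With no adjustment 2 members at 1OFF and 3 at 2OFF had p under 0.05, among 2568 and 3039 of all genes. Mycl had 8.05 ± 2.45 CPM in 1OFF, 7.49 ± 1.78 CPM in 2OFF and 4.13 ± 1.04 CPM in 12ON (SD, n = 3). Every liver of 1OFF and 2OFF was above every 12ON liver, yet the log2 differences of 0.97 ± 0.27 and 0.86 ± 0.27 did not pass (adjusted p = 0.131 and 0.118). DESeq2 called 1 member at each of these times, Mycl in both (adjusted p = 0.0272 and 0.0402). Over all genes DESeq2 called 130 of 15012 higher and 396 lower at 1OFF, and 287 of 14667 higher and 666 lower at 2OFF. Without 2OFF replicate 2, Mxd3 passed at 2OFF (log2 -0.30, adjusted p = 0.0449). In that fit 520 of 18150 genes were called higher and 985 lower, against 0 and 0 in the full fit.

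At 3OFF, 3 members were higher than in 12ON and 0 lower, while 32.3% of all genes passed, 15.3% higher. Mycl lay at 11.09, 8.39 and 10.27 CPM in 3OFF and 5.28, 3.87 and 3.24 CPM in 12ON. The groups were well apart, and Mycl rose 2.4-fold (log2 1.26 ± 0.27, adjusted p = 0.0028). Mlx lay at 28.53, 35.77 and 28.95 CPM in 3OFF and 22.89, 22.07 and 23.56 CPM in 12ON, again with no overlap (log2 0.44 ± 0.11, adjusted p = 0.00552). Mxd4 lay at 132.22, 141.88 and 129.14 CPM in 3OFF and 107.20, 92.93 and 115.22 CPM in 12ON (log2 0.35 ± 0.11, adjusted p = 0.0276). The Mxd4 call ended without 12ON replicate 1 (adjusted p = 0.0623), 12ON replicate 2 (0.149) or 3OFF replicate 2 (0.0905). Mxd3 was at the threshold (log2 -0.29 ± 0.11, adjusted p = 0.0504), and passed with RLE scaling, total counts, the 2 groups alone or DESeq2 (adjusted p between 0.00235 and 0.047). Without the 5 high-Xist libraries no member passed, with Mycl at log2 1.19 (adjusted p = 0.0554), Mlx at 0.47 (0.0516) and Mxd4 at 0.30 (0.106). In that fit 763 of 17800 genes were called higher and 1209 lower, against 2726 and 3028 in the full fit. By total count, Mlx (0.12, adjusted p = 0.344) and Mxd4 (0.03, adjusted p = 0.798) did not pass, while Max (-0.40, adjusted p = 0.00369), Mxi1 (-0.37, adjusted p = 0.00367) and Mxd3 were lower in 3OFF and did. On that scale the median of all genes was -0.31 and the split of all calls was 952 higher and 6526 lower, against 2726 and 3028 with TMM. Hepatocyte markers were higher in 3OFF in 7 of 9 cases (92700 to 116000 CPM, against 50700 to 62200 CPM in 12ON) and all 5 endothelial markers were too (205 to 240 CPM, against 128 to 139 CPM in 12ON). The 6 cholangiocyte markers were all lower (69.4 to 82.6 CPM in 3OFF, against 184 to 198 CPM in 12ON), and the part of these shifts in the member values was not tested.

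At 7OFF, 4 members differed from 12ON, 1 higher and 3 lower, while 44.0% of all genes passed, 21.4% higher and 22.7% lower. Mxi1 lay at 31.02, 25.88 and 23.22 CPM in 7OFF and 34.65, 36.74 and 32.39 CPM in 12ON. The groups did not overlap, and Mxi1 fell 1.3-fold (log2 -0.37 ± 0.10, adjusted p = 0.00731). Max lay at 24.91, 22.88 and 24.14 CPM in 7OFF and 29.46, 28.34 and 28.69 CPM in 12ON, also apart (log2 -0.27 ± 0.09, adjusted p = 0.0215). The Mxd3 count fell 1.41-fold (log2 -0.50 ± 0.11, adjusted p = 0.00156), and Prelid1 fell 1.33-fold beside it (log2 -0.41 ± 0.09). Mlx lay at 30.81, 31.81 and 30.43 CPM in 7OFF and 22.89, 22.07 and 23.56 CPM in 12ON. Every 7OFF liver was above every 12ON liver, and Mlx rose 1.36-fold (log2 0.44 ± 0.11, adjusted p = 0.00367).

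Myc at 7OFF lay at 3.77, 4.26 and 6.24 CPM, against 6.96, 5.14 and 6.68 CPM in 12ON, with overlap and no call (log2 -0.39 ± 0.26, adjusted p = 0.23). Without the 5 high-Xist libraries Myc passed (log2 -0.76, adjusted p = 0.0104), and Max (-0.28, adjusted p = 0.0554) and Mxi1 (-0.24, adjusted p = 0.136) did not. In that fit 2817 of 17800 genes were called higher and 3144 lower, against 3801 and 4032 in the full fit. Max also did not pass without 7OFF replicate 2 (adjusted p = 0.077). When 1 library was left out, further members passed, namely Mycl without 12ON replicate 1 (log2 0.85, adjusted p = 0.0388) or 7OFF replicate 2 (0.82, adjusted p = 0.0356), Mnt without 12ON replicate 3 (-0.48, adjusted p = 0.034) and Mxd4 without 7OFF replicate 3 (0.34, adjusted p = 0.0414). Mycl also passed with DESeq2 (0.65, adjusted p = 0.0476). By total count Myc (-0.79, adjusted p = 0.0252) and Mnt (-0.73, adjusted p = 0.00269) passed and Mlx did not (log2 0.02, adjusted p = 0.863), against a median of all genes of -0.41 and a split of 1348 higher and 8204 lower calls, where TMM gave 3801 and 4032. Hepatocyte markers were higher in 7OFF in 8 of 9 cases (102000 to 124000 CPM, against 50700 to 62200 CPM in 12ON), and 4 of 5 endothelial markers were higher (193 to 236 CPM in 7OFF, against 128 to 139 CPM in 12ON). The 6 cholangiocyte markers were all lower (49.6 to 78.1 CPM in 7OFF, against 184 to 198 CPM in 12ON), and the part of these shifts in the member differences was not tested.

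**Figure D4:**
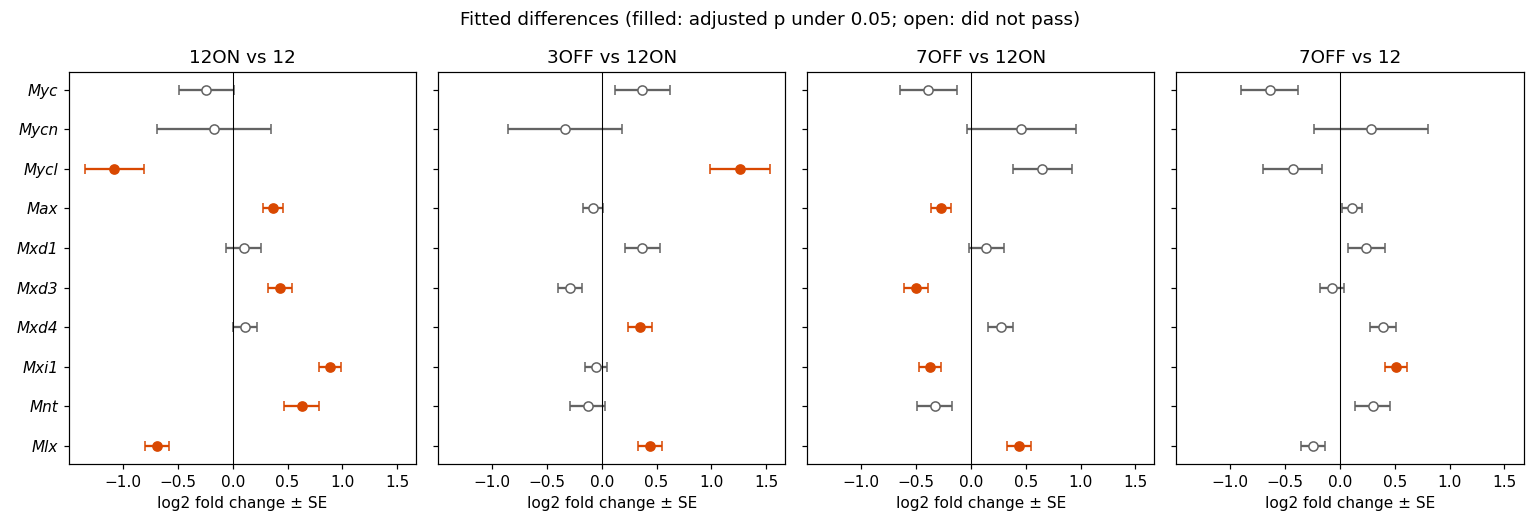
Log2 fold changes (first group over second) with standard errors from edgeR for the 10 genes in 12ON vs 12, 3OFF vs 12ON, 7OFF vs 12ON and 7OFF vs 12. Filled orange points passed at an adjusted p of 0.05 (6, 3, 4 and 1 of 10) and open grey points did not. These comparisons share livers.

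The OFF times were also set against group 12, which shows how far each stood from a liver at day 12 with no activation. By the labels these groups differ in day after injury. Whether MycER had been active earlier in the OFF mice is not given, so its part cannot be told apart from that of the day. These comparisons share group 12 with the first one, so their values are given side by side only. Members passed in 5 of 10 cases at 1OFF, 6 at 2OFF, 4 at 3OFF and 1 at 7OFF, where 33.4%, 35.1%, 17.4% and 5.77% of all genes passed. Cell type markers moved in the same comparisons, and their part was not tested. Hepatocyte markers were lower in 7 of 9 cases at 1OFF and at 2OFF, 3 at 3OFF and 0 at 7OFF, with sums of 67100 to 81200, 67000 to 75700, 92700 to 116000 and 102000 to 124000 CPM at these times, against 151000 to 164000 CPM in group 12. Cholangiocyte markers were higher in 5, 3, 2 and 1 of 6 cases at the 4 times, and endothelial markers lower in 3, 3, 1 and 0 of 5. Kupffer cell markers were lower in 3, 3, 0 and 2 of 4. Mxi1 passed at each time. Its livers lay at 32.94, 32.64 and 34.34 CPM in 1OFF, 36.13, 29.30 and 35.28 CPM in 2OFF, 34.82, 34.04 and 31.39 CPM in 3OFF and 31.02, 25.88 and 23.22 CPM in 7OFF, against 19.36, 18.61 and 18.20 CPM in group 12. No OFF liver was as low as a liver of group 12. The log2 differences were 0.83 ± 0.10, 0.84 ± 0.10, 0.84 ± 0.10 and 0.51 ± 0.10, with adjusted p = 3.43e-05, 2.86e-05, 0.000153 and 0.0121.

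Mlx lay at 25.11, 23.31 and 29.45 CPM in 1OFF and 25.26, 26.70 and 28.70 CPM in 2OFF, against 36.07, 41.49 and 33.04 CPM in group 12. It was lower with no overlap at both times (log2 -0.51 ± 0.11 and -0.46 ± 0.11, adjusted p = 0.0022 and 0.00413). At 3OFF and 7OFF the difference was -0.25 ± 0.11 each and did not pass (adjusted p = 0.132 and 0.186). Max was higher at 1OFF, 2OFF and 3OFF (log2 0.31 ± 0.09, 0.26 ± 0.09 and 0.30 ± 0.09, adjusted p = 0.0145, 0.0329 and 0.0294), and at 7OFF it had 24 ± 1.02 CPM, against 22.3 ± 1.89 CPM in group 12 (log2 0.11 ± 0.09, adjusted p = 0.515). Mxd4 was higher at the same 3 times (0.38 ± 0.12, 0.46 ± 0.12 and 0.47 ± 0.12, adjusted p = 0.0197, 0.00601 and 0.012), while it had not passed in 12ON vs 12 (adjusted p = 0.44). Mnt passed at 2OFF and 3OFF (0.56 ± 0.16 and 0.50 ± 0.16, adjusted p = 0.0143 and 0.0466) and the Mxd3 count at 1OFF and 2OFF (0.35 ± 0.11 and 0.30 ± 0.11, adjusted p = 0.0197 and 0.0397).

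Several of these calls rested on single libraries or settings. Max at 1OFF ended without group 12 replicate 3 (adjusted p = 0.071) or 1OFF replicate 3 (0.0692), Mxd4 at 1OFF without the same libraries (0.0936 and 0.0803), and Mxd3 at 1OFF without group 12 replicate 1 (0.0665), 1OFF replicate 1 (0.0777) or 1OFF replicate 2 (0.0751). At 2OFF, Max ended without group 12 replicate 2 (0.0583) or 3 (0.142) or 2OFF replicate 2 (0.0813) or 3 (0.102). Mnt at 2OFF ended without group 12 replicate 2 (0.0564) or 3 (0.056), and Mxd3 at 2OFF without each library of group 12 in turn (0.115, 0.059 and 0.0835 for replicates 1 to 3) or 2OFF replicate 2 (0.297). At 3OFF, Max ended without group 12 replicate 2 (0.06) or 3 (0.118) or 3OFF replicate 1 (0.131) or 2 (0.0734), and Mxd4 without group 12 replicate 3 (0.05). Mnt at 3OFF ended without group 12 replicate 2 (0.146) or 3 (0.136) or 3OFF replicate 1 (0.115), 2 (0.13) or 3 (0.0544), with no filter (0.0509) or with the 2 groups alone (0.0514). With the 2 groups alone Max also ended at 2OFF (0.101) and 3OFF (0.115), Mxd4 at 1OFF (0.0502) and 3OFF (0.0604) and Mxd3 at 2OFF (0.156), which ended with no filter too (0.0553). Mlx passed at 3OFF without 3OFF replicate 2 (log2 -0.36, adjusted p = 0.041), and Mxd4 at 7OFF without group 12 replicate 2 (0.49, adjusted p = 0.0416) or 7OFF replicate 3 (0.45, adjusted p = 0.0425). With DESeq2, Mxd1 passed at 3OFF (0.46, adjusted p = 0.0484) and Mxd4 at 7OFF (0.38, adjusted p = 0.0208). Mxi1 passed at all 4 times in each of these settings, except that at 7OFF it did not pass when 7OFF and 12 were fitted alone (adjusted p = 0.114). Without the 5 high-Xist libraries 2 members passed at 1OFF, 2 at 2OFF, 1 at 3OFF and 1 at 7OFF. Over all genes that fit gave 2422 higher and 2307 lower calls at 1OFF and 2260 and 1979 at 2OFF. It gave 933 and 745 at 3OFF and 239 and 315 at 7OFF. By total count Mlx did not pass at 1OFF (-0.16, adjusted p = 0.196) or 2OFF (-0.09, adjusted p = 0.469), where the medians of all genes were 0.34 and 0.37. Mxd1 then passed at 1OFF, 2OFF and 3OFF (0.57, 0.58 and 0.64, adjusted p = 0.0243, 0.0207 and 0.0257), Mnt at 1OFF (0.69, adjusted p = 0.00637) and Mxd4 at 7OFF (0.47, adjusted p = 0.0116). The splits of all calls were then 6774 higher and 1018 lower at 1OFF and 7313 and 1137 at 2OFF, where TMM gave 3036 and 2903, and 3218 and 3018. At 3OFF they were 2990 and 667 (1685 and 1414 with TMM), and at 7OFF 591 and 361 (439 and 588 with TMM).

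Between 7OFF and 1OFF, 2 members differed, both lower in 7OFF, while 30.6% of all genes passed, 15.8% lower. Since 12ON is shared, this is also the test of whether the difference from 12ON was the same at the first and last OFF times. Mxi1 had 26.7 ± 3.96 CPM in 7OFF and 33.3 ± 0.908 CPM in 1OFF (log2 -0.32 ± 0.10, adjusted p = 0.0262). It no longer passed without each 1OFF library in turn (adjusted p = 0.0583, 0.0537 and 0.0708 for replicates 1 to 3) or without 7OFF replicate 2 (0.076) or 3 (0.11), or with the 2 groups alone (0.0717). The Mxd3 count had 21 ± 1.23 CPM in 7OFF and 28 ± 2.74 CPM in 1OFF (log2 -0.42 ± 0.11, adjusted p = 0.00799), and Prelid1 moved with it (-0.39 ± 0.09). Myc had no overlap, at 3.77 to 6.24 CPM in 7OFF and 6.30 to 8.63 CPM in 1OFF, but did not pass (-0.65 ± 0.26, adjusted p = 0.0666). It passed with DESeq2 (-0.65, adjusted p = 0.043), by total count (-0.90, adjusted p = 0.0209) and without 7OFF replicate 3 (-0.90, adjusted p = 0.025), and Mlx passed without 1OFF replicate 3 (0.35, adjusted p = 0.0321). Without the 5 high-Xist libraries, Mxd3 (-0.38, adjusted p = 0.0645) and Mxi1 (-0.23, adjusted p = 0.134) did not pass and Myc did (-0.90, adjusted p = 0.00487). In that fit 2336 of 17800 genes were called higher and 2555 lower, against 2640 and 2806 in the full fit. By total count Max (-0.47, adjusted p = 0.00169) and Mxd4 (-0.26) also passed, and all genes split into 956 higher and 5259 lower calls, against 2640 and 2806 with TMM. Hepatocyte markers were higher in 7OFF than in 1OFF in 6 of 9 cases, endothelial markers higher in 2 of 5 and cholangiocyte markers lower in 2 of 6, and their part was not tested.

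Of 6 other partners of MAX and MLX, 4 were higher and 1 lower in 12ON than in group 12, with a median log2 fold change of 0.35, while 24.0% of all genes were higher and 22.6% lower. These shares of all genes also stand behind the counts for 12ON vs 12 in the next lists. Pcgf6, part of the Polycomb complex that contains MAX and MGA, had 17.6 ± 2.41 CPM in 12ON, against 8.5 ± 1.49 CPM in group 12 (log2 1.05 ± 0.17, adjusted p = 0.000118). L3mbtl2 of the same complex rose by log2 0.43 ± 0.12 (adjusted p = 0.00674). The 2 glucose-sensing partners of MLX differed in direction. Mlxip had 15.9 ± 0.906 CPM in 12ON, against 11.1 ± 1.01 CPM in group 12 (0.52 ± 0.10, adjusted p = 0.000608). Mlxipl had 106 ± 13.5 CPM in 12ON, against 163 ± 14 CPM in group 12 (-0.62 ± 0.15, adjusted p = 0.003). At 7OFF the pair was turned round against 12ON. Mlxipl had 291 ± 14.7 CPM in 7OFF and 106 ± 13.5 CPM in 12ON (1.46 ± 0.15, adjusted p = 5.51e-06). Mlxip had 11.6 ± 0.859 CPM in 7OFF and 15.9 ± 0.906 CPM in 12ON (-0.46 ± 0.10, adjusted p = 0.00164). Against group 12, Mlxipl was also higher in 7OFF (0.83 ± 0.15, adjusted p = 0.00767), and Mlxip did not pass (0.06 ± 0.10, adjusted p = 0.787).

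Among 14 target genes of MLX with MLXIP or MLXIPL, 0 were higher and 3 lower in 12ON than in group 12, with a median of -0.30, and 3 of 14 is near the 22.6% of all genes that were lower. Arrdc4, an arrestin-like gene that restrains glucose uptake, had 8.23 ± 2.05 CPM in 12ON, against 19.1 ± 4.86 CPM in group 12 (-1.20 ± 0.20, adjusted p = 0.000174). Pklr, the liver pyruvate kinase, fell by 0.61 ± 0.23 (adjusted p = 0.0384) and the hormone gene Fgf21 by 0.89 ± 0.35 (adjusted p = 0.0488). At 7OFF, 5 of the 14 were higher than in 12ON and 0 lower (median 0.37), against 21.4% and 22.7% of all genes, with Arrdc4 at 14.9 ± 2.2 CPM and Pklr at 189 ± 26 CPM in 7OFF, against 8.23 ± 2.05 and 107 ± 36.9 CPM in 12ON. Fgf21 was not among them (-0.63 ± 0.36, adjusted p = 0.164).

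Of 20 MYC coactivators and binding partners, 11 were higher and 1 lower in 12ON than in group 12 (median 0.24), against 24.0% and 22.6% of all genes. Ruvbl1 and Ruvbl2, the paired ATPases of chromatin remodelling complexes that MYC recruits, rose by log2 1.61 ± 0.14 and 1.38 ± 0.15 (adjusted p = 8.66e-07 and 4.05e-06). Of the related acetyltransferases, Kat2a (GCN5) rose (1.46 ± 0.10, adjusted p = 1.54e-07) and Kat2b (PCAF) fell (-0.55 ± 0.15, adjusted p = 0.00665). Of 12 corepressor genes that MXD proteins and MNT use, 3 were higher and 0 lower (median 0.05), which is near the 24.0% of all genes that were higher, while 46.6% of all genes were called in either direction. These were Rbbp7 (0.85 ± 0.10, adjusted p = 8.86e-06), Sap30 (0.96 ± 0.16, adjusted p = 0.000208) and Hdac2 (0.23 ± 0.09, adjusted p = 0.04), all parts of SIN3 histone deacetylase complexes. Of 20 genes linked to MYC protein turnover, 11 were higher and 1 lower (median 0.40), against the same 24.0% and 22.6%. Setd8 (also named Kmt5a) encodes a methyltransferase of histone H4 and rose by 1.34 ± 0.13, Set encodes a histone chaperone that inhibits the phosphatase PP2A and rose by 1.10 ± 0.12, and Usp22, the deubiquitinase of the SAGA complex, rose by 0.88 ± 0.10. Ppp2r5a, a PP2A subunit, fell by 0.45 ± 0.12 (adjusted p = 0.00745).

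Of 20 genes listed as MYC targets, 15 were higher and 1 lower in 12ON (median 1.17), against 24.0% and 22.6% of all genes. Their promoters were not searched for CACGTG here. Among the higher ones Ncl had 733 ± 65.5 CPM in 12ON, against 178 ± 15.4 CPM in group 12. The lower gene was Tfam (-0.53 ± 0.12, adjusted p = 0.00148), a mitochondrial DNA-binding factor. All 10 cell division genes were higher (median 3.26). At 7OFF, 1 target gene was higher and 16 lower than in 12ON (median -1.13), and all 10 cell division genes were lower (median -4.24). In that comparison 1 coactivator was higher and 6 lower (median -0.13), 2 corepressors were higher and 2 lower (0.07), and 3 turnover genes were higher and 7 lower (-0.22). Of all genes 44.0% passed there, 21.4% higher and 22.7% lower, beside 7 of 20 coactivators and 4 of 12 corepressors called. The median over all tested genes was -0.00 for 12ON vs 12 and 0.01 for 7OFF vs 12ON.

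Genes whose log2 CPM followed a member most closely over the 18 libraries were named from 11517 genes with a mean of at least 4 CPM. Points of 1 group share their treatment, and both genes of a pair share each library's depth and scaling, so these Pearson correlations only describe likeness. For Mlx they were Qsox1 (r = 0.96), Itpr1 (0.94) and Rufy1 (0.94), and for Mxi1, after the overlapping Gm10197 (0.96), Nsa2 (0.95) and Mmp15 (0.95). Max was most like Pabpc1 (0.87), Apobec1 (0.87) and Gm16286 (0.86). Mxd3 was most like Gnb1 (0.96), Snrpa1 (0.95) and Ywhah (0.95). Mxd4, after the overlapping Gm42846 (0.98), was like Cul4a (0.88) and Olfml1 (0.87), and Mnt was like Miip (0.89), Zmiz2 (0.84) and Ddx52 (0.83). The MYC family and Mxd1 had looser matches. Myc had Npc2 (0.84), Btk (0.82) and Asah1 (0.81), Mycl had Cdip1 (0.83), Gm28040 (0.82) and Cebpb (0.81), Mxd1 had Taf8 (0.79), Ccdc163 (0.76) and Gm28035 (0.74), and Mycn, with few counts, had Snx16 (0.69), Mrpl49 (0.67) and Aacs (0.66).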

How the data were processed

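Reads were poly-A single reads of 50 nt from 18 livers, 1 library per mouse. The submitters' processing notes name Trim Galore, TopHat2 and the mm10 build, with versions not given. The deposited values are raw counts per gene, made by the authors with featureCounts 1.5.0-p1 on Ensembl 82 exons, per the file headers. A read was counted for every gene it overlapped by at least 10 bases, with no strand, and multimapping reads were left out.

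Counts were fitted with edgeR 4.0.16 in R 4.3.3. All 18 libraries entered 1 quasi-likelihood fit with TMM scaling and filterByExpr at a minimum count of 10, which kept 17789 of 34937 genes (34599 with a symbol). The residual degrees of freedom were 12 and the biological coefficient of variation 0.202. Tests were two-sided, with Benjamini-Hochberg adjustment over all tested genes at 0.05. Each standard error was derived as the log2 fold change over the root of F, and CPM and RPKM were computed here from the counts, with SD over mice. The fit was also run on simulated counts, and the outcome is not given here.

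All 10 members were tested in every comparison of the main fit, but values are not printed for each member that did not pass. Among those left out above, Mxd1 was higher with no overlap in 3OFF vs 12ON (log2 0.37 ± 0.16, adjusted p = 0.0935). It was also higher with no overlap in 3OFF vs 12 (0.47 ± 0.16, adjusted p = 0.0605). Myc in 7OFF vs 12 overlapped (-0.64 ± 0.26, adjusted p = 0.159). Of each further list up to 3 genes in each direction with the smallest p in 12ON vs 12 are named, and for each member the 3 genes of highest Pearson correlation (log2 CPM, prior count 2). Members and lists were chosen with earlier results of these data known, and no list was tested as a set. Alternatives were RLE scaling, no filter, a replicate block, 2 groups alone, DESeq2 1.42.0 and leaving out each library. The fit without the 5 high-Xist libraries and CPM by total count were chosen after seeing the data. Gene coordinates are GRCm38, from the file headers and rows. Promoters are from RefSeq (GRCm38.p6). A precision limit is the 3 mice per group.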

Additional observations from a re-analysis of the deposited data

Results flagged for a closer look

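The difference from 12ON was not the same at 7OFF and 1OFF for 2 of 10 members, as tested by setting 7OFF against 1OFF in edgeR's quasi-likelihood fit. Of all genes 30.6% passed that test, so the share among members was no higher. The Mxi1 call ended without each 1OFF library in turn, without 7OFF replicate 2 or 3, and with the 2 groups alone. Without the 5 high-Xist libraries neither member passed. Mxi1 had a log2 difference of -0.37 ± 0.10 from 12ON at 7OFF and -0.05 ± 0.10 at 1OFF, and the test of 7OFF vs 1OFF gave -0.32 ± 0.10 (adjusted p = 0.0262). All 3 7OFF livers (31.02, 25.88 and 23.22 CPM) were below all 3 of 1OFF (32.94, 32.64 and 34.34 CPM). The Mxd3 count had -0.50 ± 0.11 at 7OFF and -0.07 ± 0.11 at 1OFF, and 7OFF vs 1OFF gave -0.42 ± 0.11 (adjusted p = 0.00799). Its livers were at 22.01, 21.28 and 19.61 CPM in 7OFF and 29.74, 29.50 and 24.89 CPM in 1OFF, and Prelid1, which shares exon bases with it, changed by -0.39 ± 0.09.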

How the results depend on the processing

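Over 403 recalculated values of members called in the 10 comparisons, 0 changed direction and 73 no longer passed. The 6 calls in 12ON vs 12 held with RLE scaling, no filter, DESeq2, the 2 groups alone and each library left out. Whether the replicate numbers pair the livers is not given. Same-numbered livers had correlations of -0.18 to 0.29 over 30 pairs, 9 over 0.1, and in 0 comparisons were all pairs over 0.1. These correlations do not settle whether same-numbered livers share an effect. With the replicate block 6 members passed in 12ON vs 12, 1 in 2OFF vs 12ON (against 0) and 2 in 7OFF vs 12 (against 1). Over all genes the block gave 4302 higher and 4058 lower calls in 12ON vs 12, against 4269 and 4029 in the main fit. It gave 93 and 346 in 2OFF vs 12ON (against 0 and 0) and 427 and 598 in 7OFF vs 12 (against 439 and 588). The block ended the call of Mnt in 3OFF vs 12 (0.50, adjusted p = 0.0616). With it Mycl passed in 2OFF vs 12ON (0.85, adjusted p = 0.0352) and 7OFF vs 12ON (0.67, adjusted p = 0.01), Mxd3 in 3OFF vs 12ON (-0.28, adjusted p = 0.0349), and Myc in 7OFF vs 12 (-0.63, adjusted p = 0.0433) and 7OFF vs 1OFF (-0.68, adjusted p = 0.0082). With DESeq2 1 passed in 1OFF vs 12ON, 1 in 2OFF vs 12ON and 2 in 7OFF vs 12. All genes then had 130 higher and 396 lower calls, 287 and 666, and 736 and 942 in these comparisons. Fitting 2 groups alone gave 1 in 3OFF vs 12, 0 in 7OFF vs 12 and 1 in 7OFF vs 1OFF. All genes then had 1029 higher and 859 lower calls, 45 and 171, and 1887 and 2327. The main fit gave 1685 and 1414, 439 and 588, and 2640 and 2806. Total counts gave 2 in 7OFF vs 12 and 5 in 7OFF vs 1OFF, where all genes had 591 higher and 361 lower calls, and 956 and 5259. Without the 5 high-Xist libraries the counts were 4 in 12ON vs 12, 0 in 3OFF vs 12ON, 2 in 1OFF vs 12, 2 in 2OFF vs 12, 1 in 3OFF vs 12 and 1 in 7OFF vs 1OFF. All genes then had 3154 higher and 2834 lower calls in 12ON vs 12 and 763 and 1209 in 3OFF vs 12ON. They had 2422 and 2307 in 1OFF vs 12, 2260 and 1979 in 2OFF vs 12, 933 and 745 in 3OFF vs 12, and 2336 and 2555 in 7OFF vs 1OFF. Leaving out 1 library gave 0 to 1 in 2OFF vs 12ON, 3 to 5 in 1OFF vs 12, 3 to 6 in 2OFF vs 12, 1 to 4 in 3OFF vs 12, 1 to 2 in 7OFF vs 12 and 1 to 2 in 7OFF vs 1OFF. Higher calls over all genes were 0 to 520 in 2OFF vs 12ON, 2373 to 2721 in 1OFF vs 12 and 2523 to 3117 in 2OFF vs 12. They were 1044 to 1300 in 3OFF vs 12, 133 to 577 in 7OFF vs 12 and 1762 to 2509 in 7OFF vs 1OFF. Lower calls in 2OFF vs 12ON, 1OFF vs 12 and 2OFF vs 12 were 0 to 985, 2024 to 2529 and 2384 to 2809. In 3OFF vs 12, 7OFF vs 12 and 7OFF vs 1OFF they were 743 to 1237, 187 to 687 and 2164 to 2702. The causes were not tested.

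Members not called in the main fit changed sign in places, and Mxd4 in 7OFF vs 1OFF passed by total count with the changed sign. With total counts these were, in log2, Mycn 0.29 and Myc 0.23 in 12ON vs 12, Mxd1 -0.02 in 1OFF vs 12ON and -0.02 in 2OFF vs 12ON, Mxd4 -0.15 and Mxd1 -0.28 in 7OFF vs 12ON, Mycl 0.23 in 1OFF vs 12, Mycl 0.13 and Myc 0.29 in 2OFF vs 12, Mxd3 0.00 in 7OFF vs 12, and Mycn -0.16, Mxd1 -0.25, Mxd4 -0.26 and Mlx -0.01 in 7OFF vs 1OFF. The medians of all genes moved with that scale to -0.15, -0.12, 0.18, 0.09 and -0.26 in 1OFF and 2OFF vs 12ON, 3OFF and 7OFF vs 12, and 7OFF vs 1OFF. Without the high-Xist libraries they were Mycn 0.34 and Myc 0.12 in 12ON vs 12, Myc -0.03 and Mxi1 0.04 in 3OFF vs 12ON, Mycn 0.24 and Myc 0.34 in 2OFF vs 12, and Mxd1 -0.09 in 7OFF vs 1OFF.

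Leaving out 1 library gave ranges across 0 for Mycn in 12ON vs 12 (-0.59 to 0.19), 2OFF vs 12ON (-0.71 to 0.05), 3OFF vs 12ON (-0.54 to 0.06), 1OFF vs 12 (-0.13 to 0.64) and 7OFF vs 1OFF (-0.36 to 0.42). Myc had -0.10 to 0.25, -0.20 to 0.19 and -0.15 to 0.36 in 1OFF, 2OFF and 3OFF vs 12, and Mycl -0.37 to 0.14, -0.43 to 0.03 and -0.00 to 0.43. Mnt had -0.21 to 0.02 in 2OFF vs 12ON and -0.17 to 0.11 in 7OFF vs 1OFF, Mxd1 -0.09 to 0.25 in 1OFF vs 12ON and -0.11 to 0.23 in 7OFF vs 1OFF, Mxd4 -0.06 to 0.08 in 7OFF vs 1OFF and Mxi1 -0.10 to 0.03 in 2OFF vs 12ON. Mycn had 3 to 16 counts a library, and whether depth accounts for its changes of sign was not tested. DESeq2 gave Mycn no adjusted p in 1OFF vs 12ON or 2OFF vs 12ON.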
